A study of Mus musculus with 8 samples.

Results

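De novo lipogenesis is the route by which cells build fatty acids from citrate, and its enzymes were followed here in mouse brown adipose tissue (BAT). The 10 genes were listed by name: Srebf1, Thrsp, Acly, Me1, Acaca, Acacb, Fasn, Elovl6, Scd1 and Scd2. They are 10 of the 31053 genes in the deposited count table, and all 10 were found there by Ensembl identifier. All 10 passed the filter on low counts, Scd2 only with its db/db libraries, where it is high. BAT was profiled by bulk RNA-seq in 4 wild-type (WT) C57BL6/J mice and in 4 db/db mice, all aged 8 weeks. The db/db mice, B6.BKS(D)-Leprdb/J, carry a mutation of the leptin receptor gene in all their cells, overeat and become obese and diabetic, so a difference between the genotypes is one between lean and obese diabetic animals. Per the study's methods, all mice were male, ate normal diet and were fasted before the tissue was taken. The methods name Charles River for the WT mice and Jackson for the db/db mice, whereas the study's resource list names Jackson for C57BL/6J, so the source of the WT mice is unsettled, and if it was Charles River, vendor and genotype cannot be told apart.

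In this pathway, ATP-citrate lyase splits citrate exported from mitochondria into acetyl-CoA, acetyl-CoA carboxylase converts acetyl-CoA to malonyl-CoA, and fatty acid synthase joins these units into palmitate with reducing power from NADPH. Elongases and desaturases then lengthen palmitate and place a double bond in it. In brown adipocytes the pathway is known to be highly active alongside fatty acid oxidation, it responds to insulin and feeding, and the transcription factors SREBP-1c and ChREBP drive its genes.

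Total counts lay between 2374079 and 2615009 in WT and between 2382722 and 3240074 in db/db libraries, so that 3 counts, the level taken as the floor of detection, corresponded to 0.902 to 1.33 CPM. CPM are counts scaled to a common library total, here after TMM, a normalization on the bulk of the genes. The pan-adipocyte markers Adipoq (1245 to 1828 CPM in WT, 1684 to 2112 CPM in db/db) and Plin1 and the brown marker Ucp1 (1892 to 2754 CPM in WT, 1056 to 2027 CPM in db/db) were high in every library, as whole BAT has them, although the labels also name the stromal vascular fraction as cell type. Lepr had 0 counts in all 8 libraries, so the mutated gene gave no check of the genotype labels. In whole tissue, fewer cells of a type and less RNA per cell cannot be told apart.

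Of the 10 genes, 3 were lower in db/db BAT (Fasn, Acacb and Thrsp), 1 was higher (Scd2), and 6 did not pass the test (Srebf1, Acly, Me1, Acaca, Elovl6 and Scd1). The same 4 genes were those whose 4 db/db values lay entirely outside the 4 WT values. Among the 9264 genes tested, 27.7% passed the same test, 15.8% as higher and 11.9% as lower in db/db, and 28.1% did not overlap between the genotypes, so the count of 4 of 10 has to be read against a tissue in which many genes differed. The median log2 fold change, db/db over WT, was −0.30 over the 10 genes and 0.0066 over all genes tested. Together the 10 genes held 1.80% to 2.31% of all counts in WT libraries and 1.004% to 1.95% in db/db libraries.

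**Figure D1:**
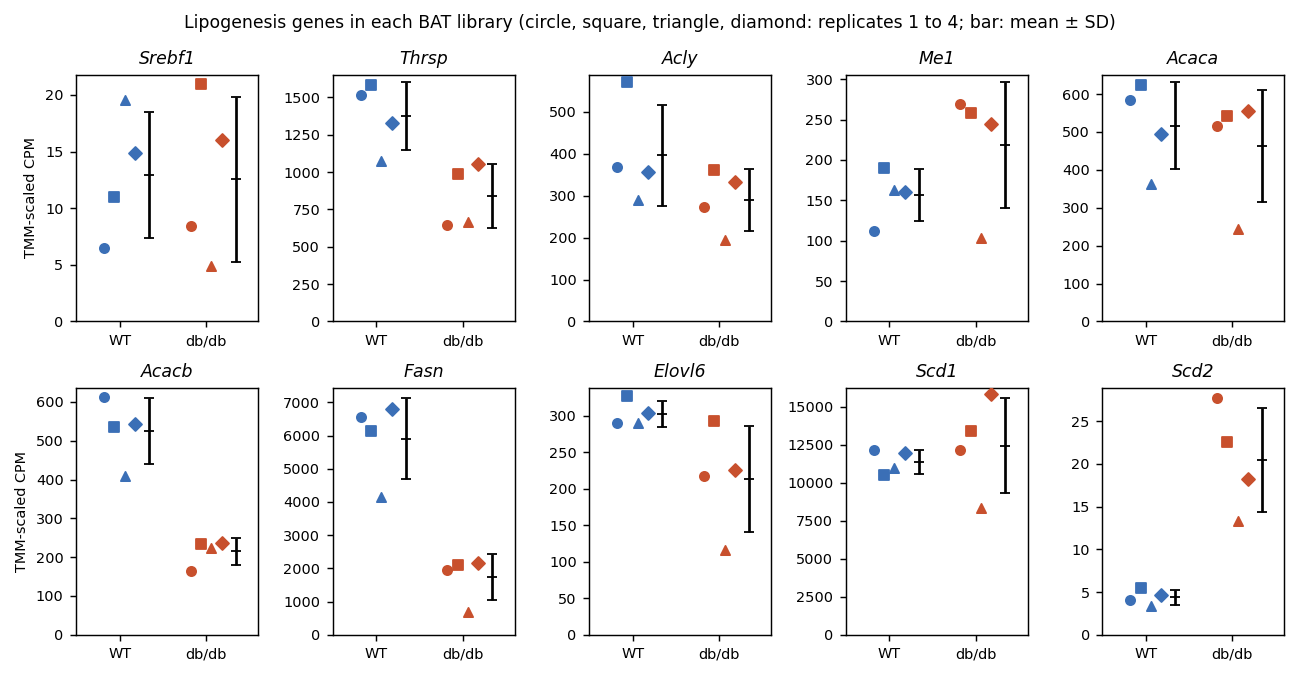
Level of each of the 10 genes (vertical axes, TMM-scaled CPM, each starting at 0) in every WT (blue) and db/db (orange) library, with the mean and SD of each genotype as a black bar. Fasn, Acacb and Thrsp lie lower in all 4 db/db libraries than in any WT library, Scd2 lies higher, and the other 6 genes overlap.

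The deposited data hold no sequence, so regions before a RefSeq start of Fasn and of Acacb, the 2 enzyme genes that fell, are shown (build GRCm38.p6) to place the results on the genome. Each is read 5′ to 3′ on the strand of the gene, and capitals mark CCAAT, or ATTGG where the motif lies on the other strand. The Fasn region is the 250 bases before the start (chr11:120824548-120824797, minus strand), and the Acacb region ends 9 bases before the start, where an annotated exon begins (chr5:114165268-114165508, plus strand). The Acacb start is an internal one: in GENCODE the gene already begins at base 114146535 of chromosome 5, upstream of this region.
Fasn: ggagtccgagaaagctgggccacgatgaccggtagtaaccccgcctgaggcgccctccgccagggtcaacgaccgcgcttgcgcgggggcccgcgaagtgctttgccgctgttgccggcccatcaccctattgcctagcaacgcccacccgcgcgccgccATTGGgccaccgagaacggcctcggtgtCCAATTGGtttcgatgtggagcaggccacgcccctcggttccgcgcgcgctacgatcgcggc
Acacb: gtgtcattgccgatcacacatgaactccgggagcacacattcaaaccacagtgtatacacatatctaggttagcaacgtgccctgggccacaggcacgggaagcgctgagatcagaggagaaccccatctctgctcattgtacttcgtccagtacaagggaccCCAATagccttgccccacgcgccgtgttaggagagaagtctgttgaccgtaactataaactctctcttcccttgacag

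In Fasn the motif stood at positions −90, −62 and −59 from the start, the last 2 on opposite strands and overlapping as CCAATTGG, and in Acacb at −87. RefSeq windows of 300 bases, 250 before and 50 after each start, were given for 8 of the 10 genes, and those of Scd1 and Scd2 were not given. Searched on both strands, CCAAT was in the windows of 6 of the 8 genes (Acly, Acacb, Fasn, Me1, Thrsp and Srebf1), or in 7 of their 11 windows, since Me1 and Srebf1 have several starts, beside 37.4% of all 32851 windows. The GC box GGGCGG was in 3 genes (Acly, Me1 and Srebf1) and 4 of the 11 windows (35.7% of all windows), and TATAAA in 1 window (Acacb; 13.6% of all windows). The SREBP element TCACNCCAC was in 0 of the 8 (1.24% of all windows) and the E-box CACGTG also in 0 (7.15%), which says only that these letters are not in these windows. These matches are descriptions of letters, and the genes that differed and those that did not both held CCAAT.

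Srebf1 encodes SREBP-1, whose 1c form activates the lipogenic genes. Its level was 6.47, 10.97, 19.5 and 14.9 CPM in WT replicates 1 to 4 and 8.42, 21.0, 4.88 and 15.996 CPM in db/db replicates 1 to 4. The ranges overlapped widely, with the lowest and the highest values of all 8 libraries both in db/db. The log2 fold change was −0.03 ± 0.39 (SE; adjusted p = 0.965), with a 95% interval from −0.85 to 0.79. The interval reaches well to both sides of 0, so no change in either direction can be read from these libraries. The gene had 11 to 66 counts a library, and its values deviated from the genotype means by −1.06 to 0.89 on the log2 scale. Part of these counts is uncertain: Srebf1 shares 109 exonic bases with Rai1 on the opposite strand, and no source says if reads were counted by strand.

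Thrsp encodes the Spot 14 protein, a thyroid hormone responsive nuclear protein that accompanies lipogenesis. Its levels were 1516, 1583, 1077 and 1331 CPM in WT and 646, 985, 668 and 1057 CPM in db/db. The genotypes did not overlap, but the gap was narrow: the highest db/db value, 1057 CPM, lay just under the lowest WT value, 1077 CPM. Thrsp fell to 61.0% of the WT level, a log2 fold change of −0.71 ± 0.18 (SE; adjusted p = 0.00551). This call was lost when a score of 10 skeletal muscle markers entered the fit (−0.29, adjusted p = 0.636) and when a change larger than 0.5 on the log2 scale was asked for (adjusted p = 0.203).

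Acly, ATP-citrate lyase, supplies the acetyl-CoA. Its levels were 368, 571, 289 and 357 CPM in WT and 274, 362, 195 and 333 CPM in db/db. Of the 4 db/db libraries, 2 lay below all WT libraries and 2 within their range. The log2 fold change of −0.45 ± 0.20 (SE) did not pass (adjusted p = 0.114), and its 95% interval ran from −0.87 to −0.02. Leaving out 1 library moved it between −0.59 (without WT replicate 3, adjusted p = 0.0475) and −0.23 (without WT replicate 2, adjusted p = 0.426).

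Me1, the cytosolic malic enzyme, makes NADPH while turning malate into pyruvate. Its levels were 112.5, 189.5, 163 and 160.02 CPM in WT and 269, 258, 103 and 244 CPM in db/db. In db/db, 3 libraries lay above every WT library and replicate 3 lay below all of them. The log2 fold change was 0.49 ± 0.23 (SE; adjusted p = 0.128), and without db/db replicate 3 it was 0.71 and passed (adjusted p = 0.00442). Me1 is uncertain on sequence grounds: 20% of the 75-base runs in its transcripts, the length of a read, also occur in the annotated genes Gm48795, Gm7049 and Gm7329.

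The committed step is catalysed by a pair of acetyl-CoA carboxylases. Acaca encodes the cytosolic enzyme, ACC1, which makes malonyl-CoA for synthesis, and Acacb the enzyme at the outer mitochondrial membrane, ACC2, whose malonyl-CoA restrains fatty acid entry through Cpt1. Acaca stood at 583, 624, 363 and 496 CPM in WT and at 515, 542, 244 and 555 CPM in db/db. Of these, 3 db/db values lay inside the WT range and 1, replicate 3, below it. Its log2 fold change was −0.15 ± 0.22 (SE; adjusted p = 0.646), with a 95% interval from −0.61 to 0.31. Of the 75-base runs of Acaca transcripts, 26.8% also occur in transcripts of 45 other genes, so reads from those stretches cannot be assigned with certainty.

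Acacb stood at 614, 535, 408 and 543 CPM in WT and at 163, 235, 225 and 238 CPM in db/db. All db/db libraries lay below all WT libraries with a wide gap, and the 4 db/db values lay close together. Acacb fell to 40.9% of the WT level, a log2 fold change of −1.29 ± 0.16 (SE; adjusted p = 1.03e-05). It shared no 75-base run and no exon with another gene.

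The ratio of the carboxylases within a library does not depend on scaling between libraries. There were 1.05, 0.857, 1.12 and 1.10 Acacb counts per Acaca count in WT and 0.317, 0.433, 0.922 and 0.428 in db/db. In WT the counts of the pair were about equal, and in db/db 3 libraries stood below every WT library while replicate 3 lay within the WT range. The mean log2 ratio, db/db minus WT, was −1.09 (0.04 ± 0.18 in WT, −1.05 ± 0.66 in db/db, SD, n = 4; exact two-sided permutation p = 0.0571, also 0.0571 adjusted over 2 ratios), which did not pass. A difference in this ratio was thus not established.

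Fasn encodes fatty acid synthase. Its levels were 6572, 6142, 4151 and 6788 CPM in WT, with a mean of 5913 ± 1205 CPM (SD, n = 4), and 1962, 2116, 694 and 2152 CPM in db/db, with a mean of 1731 ± 696 CPM (SD, n = 4). The highest db/db library lay well under the lowest WT library, WT replicate 3. Fasn fell to 29.3% of its WT level, a log2 fold change of −1.77 ± 0.27 (SE; adjusted p = 9.57e-05). The gene, at chromosome 11 from 120805846 to 120824547 on the minus strand (mm10), overlaps no other annotated gene and shared no 75-base run with another. Leaving out any 1 library moved the log2 fold change only between −1.93 and −1.51, and all 8 such fits passed.

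Elovl6, the elongase that extends palmitate to stearate, stood at 291, 328, 289.7 and 304 CPM in WT and at 218, 293, 116 and 226 CPM in db/db. The WT libraries lay close together, and 3 of 4 db/db libraries lay below them while replicate 2 fell inside their range. The log2 fold change of −0.50 ± 0.20 (SE; adjusted p = 0.0654) did not pass. It passed without db/db replicate 2 (−0.70, adjusted p = 0.0148), whereas without db/db replicate 3 it shrank to −0.31 (adjusted p = 0.143). Gm35986, an annotated antisense gene that shares 34 exonic bases with Elovl6, fell in db/db from 18.8 to 37.1 CPM in WT to 0.443 to 4.45 CPM (log2 fold change −3.45, adjusted p = 1.60e-05). Without strand information the counts of Elovl6 and Gm35986 in the shared bases cannot be told apart.

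Scd1 and Scd2 encode stearoyl-CoA desaturases, which make oleate and palmitoleate, and lie on chromosome 19 within the same gene cluster. Scd1 stood at 12138, 10494, 10934 and 11956 CPM in WT and at 12168, 13361, 8344 and 15855 CPM in db/db. In db/db, 3 libraries lay above every WT library, replicate 1 only just, and replicate 3 lay below all of them. The log2 fold change was 0.13 ± 0.18 (SE; adjusted p = 0.643), with a 95% interval from −0.25 to 0.50, which excludes a change of the size seen for Fasn in these libraries.

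Scd2 stood at 4.05, 5.49, 3.38 and 4.67 CPM in WT and at 27.7, 22.6, 13.3 and 18.2 CPM in db/db. Every db/db library lay above every WT library. Scd2 rose 4.68-fold, a log2 fold change of 2.23 ± 0.30 (SE; adjusted p = 2.93e-05), from 9 counts in the lowest WT library to 92 in the highest db/db library. Its WT counts of 10, 13, 9 and 11 lay near the minimum count of 10, so Scd2 entered the test only with its db/db libraries, where it is high. Scd2 was called in all 8 fits without 1 library, where the log2 fold change ran from 2.04 to 2.37.

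Scd2 nevertheless gave few counts beside Scd1. There were 0.333, 0.523, 0.309 and 0.391 Scd2 counts per 1000 Scd1 counts in WT, and 2.27, 1.69, 1.59 and 1.15 in db/db. The ratio was higher in all 4 db/db libraries than in any WT library. The mean log2 ratio differed by 2.04, or 4.12-fold (−11.29 ± 0.33 in WT, −9.25 ± 0.40 in db/db, SD, n = 4). The exact two-sided permutation p of 0.0286 was the smallest that 4 against 4 samples can give and was 0.0571 after adjustment over 2 ratios, which did not pass. Of the 75-base runs, 3.15% of those in Scd1 and 1.78% of those in Scd2 also occur in transcripts of other genes (Scd2, Scd3, Scd4 and 1 unnamed gene for Scd1, and Scd1, Scd3 and Scd4 for Scd2), and the share of Scd1 reads counted to Scd2 was not tested.

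**Figure D2:**
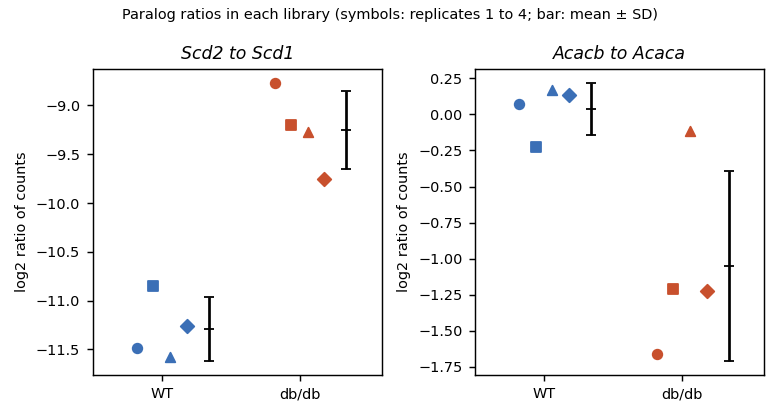
Log2 ratio of Scd2 to Scd1 counts (left) and of Acacb to Acaca counts (right) in each WT (blue) and db/db (orange) library, with mean and SD. All 4 db/db libraries lie above WT for Scd2 to Scd1, and 3 of 4 lie below WT for Acacb to Acaca, with db/db replicate 3 in the WT range.

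Per kilobase of annotated exon, the order of levels in WT was Scd1 (2326 CPM per kb), Thrsp (629), Fasn (540.2), Acly (75.1), Acacb (54.5), Elovl6 (47.1), Me1 (40.6), Acaca (30.3), Srebf1 (2.30) and Scd2 (0.805). Thrsp and Fasn were neighbours whose WT ranges overlapped, as were Acly and Acacb, Acacb and Elovl6, Elovl6 and Me1, and Me1 and Acaca. In db/db the first 3 places were the same, with Fasn at 158 CPM per kb, and Acacb moved from place 5 to place 8 at 22.3 CPM per kb. The db/db range of Acacb (16.9 to 24.7 CPM per kb) overlapped those of Acaca (14.3 to 32.5, place 7) and Elovl6 (18.1 to 45.6, place 6), so places 6 to 8 are not resolved. Scd2, last in WT, stood at 3.74 CPM per kb in db/db and Srebf1 at 2.23 CPM per kb, with overlapping ranges. This order holds only as far as reads cover whole transcripts, which is not stated for these libraries.

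**Figure D3:**
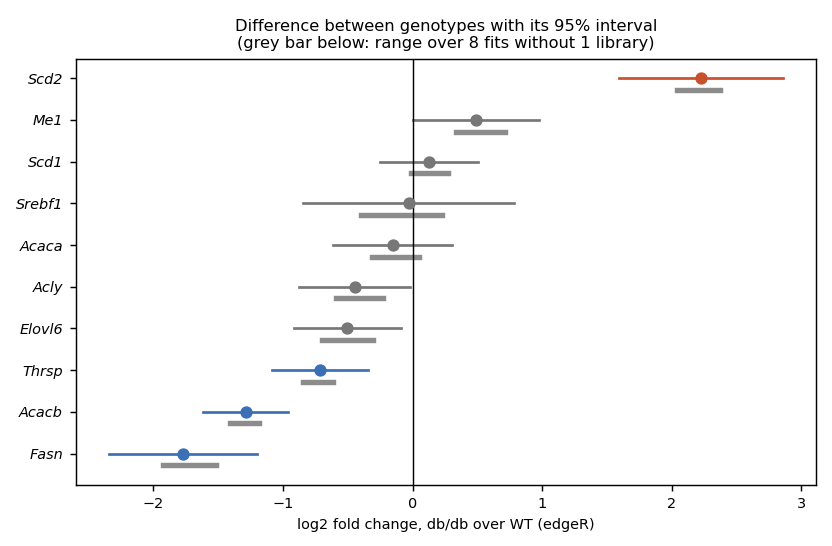
Log2 fold change, db/db over WT, of each gene (points) with its 95% interval (lines), and the range over the 8 fits that each left out 1 library (grey bars). The intervals of Fasn, Acacb, Thrsp and Scd2 lie farthest from 0, whereas Srebf1, Acaca and Scd1 straddle 0 and change sign in some of the 8 fits.

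The genes also varied together within a genotype. After the genotype means were removed, 42 of the 45 pairs of the 10 genes had a positive Pearson correlation over the 8 libraries, with a median of 0.68 and a range from −0.33 to 0.95. All pairs share the same libraries and their depth and scaling, so these values are a description. db/db replicate 3 was the lowest of its genotype in 8 of the 10 genes, and WT replicate 3 in 7. Without db/db replicate 3, 30 of the 45 pairs were positive and the median was 0.33. This library had the fewest counts of the db/db group, 2382722, and its share of counts in the 10 genes was 1.004%, beside 1.75% to 1.95% in the other db/db libraries. Acacb was an exception in it, with 225 CPM among 163 to 238 CPM.

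**Figure D4:**
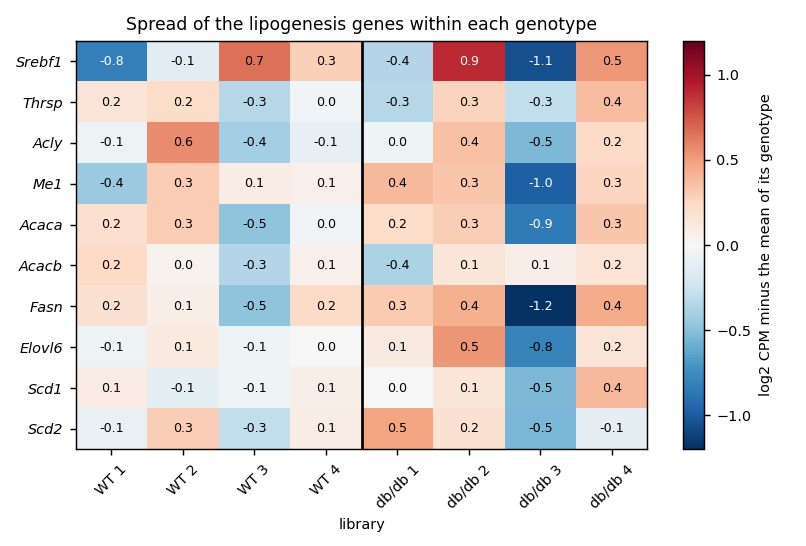
Deviation of each gene (rows) from the mean of its genotype on the log2 CPM scale (colour and number) in each library (columns). db/db replicate 3 is blue in all rows but Acacb, down to −1.18 for Fasn.

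Whether regulators and Fasn moved together between animals was tested on the same deviations, over 8 libraries with all 576 arrangements within genotypes. For Thrsp and Fasn, Pearson's r was 0.63 (exact permutation p = 0.116; 0.174 adjusted over 3 relations) and Spearman's rho was 0.52 (p = 0.286; adjusted 0.347). Leaving out the pair of libraries most distant from the median of Thrsp (WT replicate 3 and db/db replicate 1) gave r = 0.90. For Srebf1 and Fasn, r was 0.48 (exact permutation p = 0.361, which adjustment left at 0.361) with rho = 0.48 (p = 0.347; adjusted 0.347). When the pair most distant in Srebf1 (WT replicate 1 and db/db replicate 3) was dropped, r became −0.24. Without WT replicate 1 alone r was 0.64 and without db/db replicate 3 alone it was −0.41, so this relation rested on db/db replicate 3. For Mlxipl, which encodes ChREBP, and Fasn, r was 0.59 (exact permutation p = 0.0938; adjusted 0.174), rho was 0.55 (p = 0.0938; adjusted 0.281), and r was 0.65 after the pair most distant in Mlxipl (WT replicates 2 and 3) was dropped. None of the 3 relations passed.

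Among 3147 other genes with a mean log2 CPM of at least 5, those whose centred log2 profile over the 8 libraries lay nearest to that of Fasn were Slc25a1 (Euclidean distance 0.97), Tkt (1.09), Aldh4a1 (1.204), Apoc1 (1.28) and Cxcl14 (1.31). Slc25a1 encodes the mitochondrial citrate carrier and Tkt the transketolase of the pentose phosphate pathway. Of the other lipogenesis genes, Acacb ranked 31 in this order, Elovl6 75, Thrsp 76, Acly 265, Acaca 435, Scd1 1420 and Me1 2293. The distance includes the genotype difference and is a description.

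The wider pathway was described by 70 further genes in 6 lists, of which 58 were tested, 7 were higher and 18 lower in db/db, with a median log2 fold change of −0.22. Over all genes tested 15.8% were higher and 11.9% lower, and the counts of each list have to be read against these shares. With the score of 10 skeletal muscle markers in the fit, 2 were higher and 7 lower, so most of the calls given by gene for these lists were lost under that setting. The list of citrate and acetyl-CoA supply had the most genes that fell: 7 of 11 were lower and 0 higher, and its median was −0.96. Slc25a1 fell from 330.2 to 404.7 CPM in WT to 72.7 to 173 CPM in db/db (log2 fold change −1.45 ± 0.20, adjusted p = 2.90e-05). Acss1, the mitochondrial acetyl-CoA synthetase, fell by 1.5991 on the log2 scale (adjusted p = 8.01e-07), whereas the cytosolic enzyme Acss2 had −0.09 (adjusted p = 0.813). Mpc1 and Mpc2, which form the mitochondrial pyruvate carrier, each had −1.02 (adjusted p = 0.000395 and 5.45e-05), and Pdha1 of pyruvate dehydrogenase had −1.02 (adjusted p = 5.25e-05).

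In NADPH supply, 2 of 8 tested genes were higher and 4 lower, beside 15.8% higher and 11.9% lower over all genes tested. The count of higher genes lies near that share and is no result about the list. Pgd and Idh2, which each make NADPH, rose by 0.75 and 0.67 on the log2 scale (adjusted p = 0.00202 and 0.00303). Tkt (−1.55, adjusted p = 7.92e-06), Pgls (−0.75), Me3 (−0.63) and Taldo1 (−0.55) fell. G6pdx, the entry enzyme of the pentose phosphate pathway, had 0.33 and did not pass (adjusted p = 0.155).

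Among other desaturases, elongases and genes of the elongation cycle, 11 of 19 were tested, 4 were higher and 2 lower. Over all genes tested, 15.8% were higher and 11.9% lower, and the count of lower genes lies near that share. Fads3, a desaturase of the FADS family, rose from 2.11 to 12.9 CPM in WT to 56.3 to 87.8 CPM in db/db (log2 fold change 3.03 ± 0.29, adjusted p = 8.59e-07). Hacd4 (1.84), Elovl1 (1.204) and Degs1 (1.11), a desaturase of sphingolipid synthesis, also rose, so that Scd2 was not the only desaturase that did. Fads3 (5 to 32 counts in WT) and Hacd4 (6 to 12) passed the count filter only with their db/db libraries, where they are high. Hsd17b12 of the elongation cycle (−0.69) and Elovl5, an elongase of polyunsaturated fatty acids (−0.58), fell.

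Of the 12 genes of transcription and SREBP processing, 11 were tested, 0 were higher and 2 lower, a smaller share than the 27.7% called over all genes tested, so this count is no result about the list. Insig1, which retains the SREBP complex in the endoplasmic reticulum and is itself a target of SREBP, fell from 40.9 to 55.2 CPM in WT to 19.4 to 25.3 CPM in db/db (log2 fold change −1.17 ± 0.17, adjusted p = 6.45e-05). Nr1h2, the liver X receptor beta, had −0.57 (adjusted p = 0.0280). Mlxipl had −0.35 and did not pass (adjusted p = 0.105).

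In the list of malonyl-CoA and carboxylase control, 1 of 13 tested genes was higher and 2 were lower, which is no larger a share than the 27.7% called over all genes tested and so is no result about this list. Mid1ip1, the paralog of Thrsp that promotes assembly of acetyl-CoA carboxylase, rose by 0.94 on the log2 scale (adjusted p = 0.00495), while Thrsp fell. Mlycd, malonyl-CoA decarboxylase, had −0.58 (adjusted p = 0.00616) and Prkag1, a subunit of AMP-activated kinase, −0.61 (adjusted p = 0.00573). Of 4 tested acyl-CoA synthetases, 1 was lower, Acsl1 (−0.57, adjusted p = 0.00380), and 0 were higher, again no larger a share than over all genes tested.

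**Figure D5:**
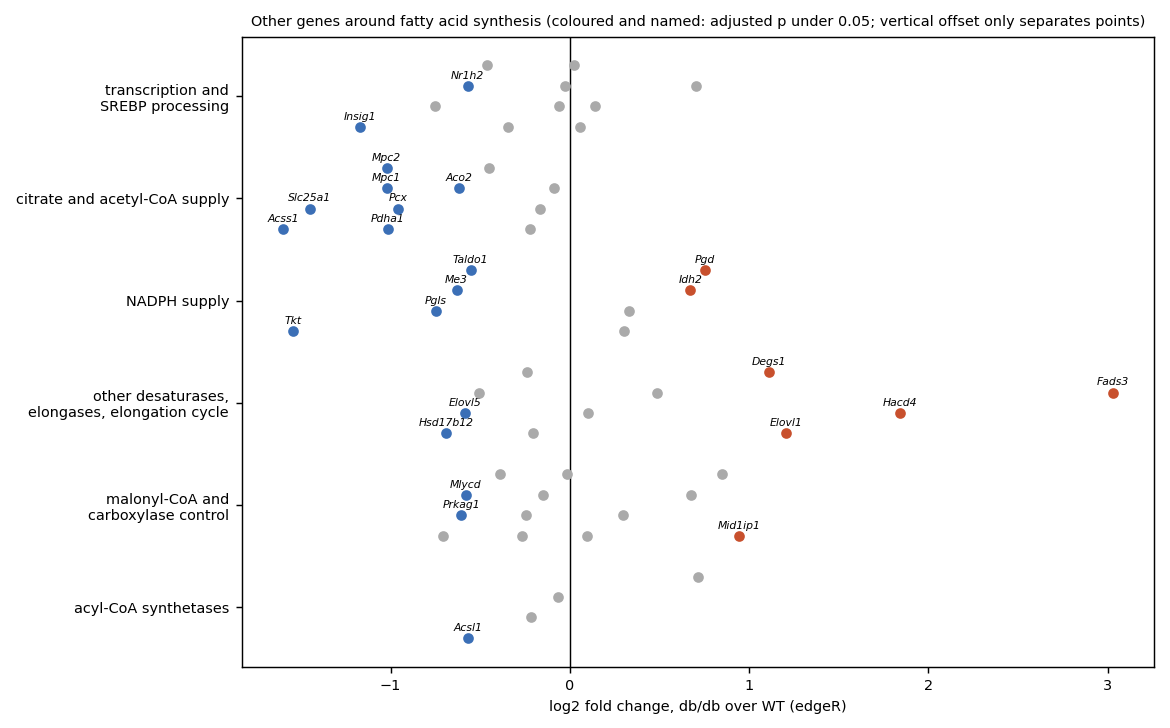
Log2 fold change, db/db over WT, of the 58 tested genes in the 6 pathway lists (rows), with genes that passed in colour and named (blue lower, orange higher) and the others in grey. The list of citrate and acetyl-CoA supply has 7 lower and 0 higher genes, and Fads3 at 3.03 is the farthest to the right.

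Markers of several cell types moved with genotype. Their counts have to be read against the 15.8% of all genes tested that were higher and the 11.9% that were lower. Counts near those shares, as for pan-adipocyte and endothelial markers, are no result about the list. The summed level of 8 pan-adipocyte markers was 13523 to 21942 CPM in WT and 18063 to 23375 CPM in db/db (2 higher, 1 lower), and scaling to these markers left the 4 calls in place. Brown adipocyte markers summed to 8959 to 10646 CPM in WT and 3791 to 6825 CPM in db/db (6 of 7 tested lower), and white adipocyte markers to 111 to 341 and 1885 to 2905 CPM (4 of 6 higher, Retn and Agt not passing). Macrophage markers summed to 108 to 146 and 509 to 884 CPM (5 of 7 tested higher, Ptprc and Cd14 not passing, Cd14 at −1.03). Lipid-associated macrophage markers summed to 10.6 to 30.4 and 199 to 400.1 CPM (5 of 5 tested higher, Spp1 not tested). Lyz2 and, in db/db, Lgals3 were the largest part of their sums. Fibroblast and progenitor markers summed to 409 to 516 and 807 to 1520.1 CPM (5 of 5 higher). Endothelial markers summed to 216 to 293 and 164 to 198 CPM (1 of 4 lower), and erythroid markers to 2275 to 6353 and 4729 to 12603 CPM (0 of 3 called). Trem2 (0 to 1 counts in WT), Itgax (0 to 4) and Cd9 (5 to 9) passed the count filter only through db/db, where they are high. Adgre1, Cd68, Pdgfra, Pi16 and Myh2 also needed db/db libraries to pass, so the counts of higher markers are partly set by the filter. Skeletal muscle markers, 10 of 10 higher, summed to 383 to 1335 CPM in WT and 1987 to 10017 CPM in db/db, highest in db/db replicate 1. None of the listed markers was at 0 in all libraries, and the defining marker Trem2 was at 0 to 0.422 CPM in WT. The part of these cell types in the differences of the lipogenesis genes was not tested. The muscle score did not overlap between the genotypes, being higher in all 4 db/db libraries, so a fit that holds both can separate them only in part. In that fit Fasn (−1.65, adjusted p = 0.0181), Acacb (−0.98, adjusted p = 0.0223) and Scd2 (1.79, adjusted p = 0.0303) passed, and Thrsp (−0.29, adjusted p = 0.636) did not.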

How the data were processed

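Libraries were made by a commercial mRNA-seq service from total RNA and sequenced single-end. The authors deposited raw counts per Ensembl gene. Their methods describe trimming with bbduk, alignment to mm10 with STAR and counting with HTSeq-count, whereas the submitters' processing notes name Trimmomatic, HISAT2 and DESeq2 with GRCm38, and which of these made the deposited table is not settled. Strand and molecular identifiers are not stated. Detection floors cover counting error only, whereas SE and intervals of fold changes come from the fit and include the spread between libraries. A deposited table of normalized values was not used here.

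Of 31053 genes, 31011 matched GENCODE M21, and unmatched genes held at most 0.00213% of a library. Genes were filtered with filterByExpr (minimum count 10, total 15), scaled by TMM and tested in edgeR 4.0.16 (quasi-likelihood F test, R 4.3.3), Benjamini-Hochberg adjusted over 9264 genes at 0.05, with genotype as the only term. SE came from the F statistic. Ratios used counts plus 0.5. Profiles used log2 CPM with a prior count of 2. Alternatives included DESeq2 1.42.0 and limma 3.58.1. The script was tested on simulated data.

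The 10 genes, the other lists and the naming rule (all 10 genes, up to 4 called genes per list and direction, a few others by name and the 5 genes nearest to Fasn) were chosen with earlier results of these data known. Each library is 1 labelled sample, and no label ties samples across genotypes.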

Additional observations from a re-analysis of the deposited data

Results flagged for a closer look

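In db/db replicate 3, 3 genes stood apart from the other 3 db/db libraries by a gap larger than Dixon's 95% critical value for 4 samples. Fasn was at 694 CPM where the nearest library had 1962 CPM, Acaca at 244 CPM where the nearest had 515 CPM, and Me1 at 103 CPM where the nearest had 244 CPM. The level of each was read from 1566, 550 and 233 counts, in that order. With 24 groups of 4 libraries examined, chance would flag 1.2, and the 3 flags come from the same library.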

How the results depend on the processing

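Fasn and Acacb passed in the same direction under all 20 alternatives run, and Scd2 under the 19 in which it was tested. Over 10 genes, 107 of 119 values under other settings and 71 of 80 without 1 library kept their direction and side of the threshold. Thrsp lost its call under 2 settings given with its result. With every gene that had a count in the test, 2 of the 10 genes were higher (Me1 joining, adjusted p = 0.0280) and 5 lower (Acly and Elovl6 joining, 0.00905 and 0.00289), and asking for at least 10 counts in every sample left 0 higher, since Scd2 was not tested. Elovl6 also passed with limma-voom (adjusted p = 0.0420) and with scaling to pan-adipocyte markers (0.0419).

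With the muscle score as covariate, 418 genes were higher and 152 lower overall instead of 1466 and 1102, and 2 and 7 of the other pathway genes; Srebf1 turned to 0.51 and Acaca to 0.00066. Srebf1 was also 0.0219 under the stricter filter. Without 1 library, the values ran from −0.40 to 0.22 for Srebf1, −0.31 to 0.0520 for Acaca (positive without db/db replicate 3) and −0.0138 to 0.27 for Scd1. In these fits 1 to 2 of the 10 genes were higher and 3 to 4 lower (Acly joining without WT replicate 3, −0.59, adjusted p = 0.0475), 7 to 9 and 16 to 20 of the other pathway genes, and 1281 to 1435 and 889 to 1056 genes overall. The relation of Srebf1 with Fasn ran from −0.41 without db/db replicate 3 to 0.75 without WT replicate 3 (exact permutation p = 0.0417), that of Mlxipl from 0.49 to 0.74 (0.71 without WT replicate 2, p = 0.0486) and that of Thrsp from 0.55 to 0.90. The ratio differences ran from 1.89 to 2.21 for Scd2 to Scd1 and from −1.40 to −0.89 for Acacb to Acaca. The causes of these shifts were not tested.

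No label pairs the samples by replicate number. Over the genes tested, deviations of same-numbered libraries correlated between −0.078 and 0.049. Within the 10 genes, however, replicate 3 was the lowest of its genotype in 7 genes in WT and in 8 in db/db. Whether same-numbered libraries share a batch was not tested. With the replicate number as a block, 5 of the 10 genes were lower (Acly and Elovl6 joining, adjusted p = 0.0244 and 0.0233). Srebf1 and Scd2 had the fewest counts of the 10 genes, with 11 and 9 in their lowest libraries.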

Other observations

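Several genes of fatty acid synthesis and desaturation had too few counts to be tested. Elovl3, an elongase known for its induction in cold-exposed BAT, had 0 to 2.25 CPM in WT and 0.443 to 3.72 CPM in db/db. Scd3 had 0 to 1.88 CPM in WT and 0 to 3.01 CPM in db/db, and Scd4 had 0 counts in all 8 libraries.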
